A study of Rattus norvegicus with 2 samples.

Results

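Aminoacyl-tRNA synthetases join each amino acid to its transfer RNA, the step that supplies the ribosome. The 36 synthetase genes described here were taken by symbol from the 16846 gene symbols of the deposited table, with no use of measured values. They are the genes named by an amino acid letter followed by "ars", with or without a suffix, plus Eprs, Ears2, Fars2, Farsa, Farsb, Pars2 and Tarsl2. Of these, 21 encode cytosolic enzymes and 15, those with the suffix 2, mitochondrial enzymes. The scaffold genes Aimp1, Aimp2 and Eef1e1 encode no synthetase and were kept apart. Iars2 and Mars2 were not among the deposited gene symbols and so could not be analysed.

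Animal cells run 2 protein synthesis systems, in the cytosol and in the mitochondrion, and most amino acids have a separate nuclear gene for each. Gars and Kars, the glycine and lysine enzymes, each serve both compartments from a single gene. Eprs carries the glutamate and proline activities in a single cytosolic protein, while mitochondria use Ears2 and Pars2. Synthetases fall by the fold of their catalytic domain into class I and class II. A set of cytosolic enzymes is held with the scaffold proteins in the multi-synthetase complex. Transcription of many cytosolic synthetase genes is known to be raised by ATF4, the transcription factor of the amino acid response, and mitochondrial protein synthesis makes core subunits of the respiratory chain, on which the heart depends.

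The study measured poly(A) RNA in 2 libraries from cultured ventricular cells of neonatal rats (postnatal day 0), plated as cardiomyocytes after 2 h on uncoated plastic, with a stated purity above 90%. The anti-miR library came from cultures transduced for 7 days with AAV2/9, a viral vector, expressing shRNA inhibitors against let-7 (let-7a/c in the protocol) and miR-99/100. The control is an empty virus by the treatment label and a mock transduction by the protocol. Rat strain, the promoter of the hairpins and the number of animals pooled are not given in the sources used here. With 1 library per group, no difference below has a replicate check and no test of the conditions was made. The comparison asks how inhibiting these miRNAs alters gene expression, and the mature forms are shown because their seeds (bases 2 to 8, in capitals) are the part of a miRNA that pairs with its targets. The sequences are from RefSeq, build GRCr8, and the members of each family share their seed.
let-7a-5p: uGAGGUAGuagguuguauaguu
let-7c-5p: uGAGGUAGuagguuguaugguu
miR-99b-5p: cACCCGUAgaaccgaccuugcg
miR-100-5p: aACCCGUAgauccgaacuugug

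Reads on genes numbered 16031780 in the control against 14815846 with the anti-miR. Levels are reads per 1000000 reads on genes (RPM) or, where genes are compared with each other, reads per kilobase of the deposited transcript model per 1000000 reads (RPKM), always with the control first. Of the 36 member models, 15 have a length that is a multiple of 3, which can also arise by chance. Whether some models hold the coding part only was not tested, which limits comparisons between genes. A ratio is the anti-miR over the control level. Its log2 value adds 0.1 RPM to both, so that differences of low genes come out too small. With each ratio goes an exact Clopper-Pearson 95% interval for counting error alone, and as the reads carry no molecular identifiers they are not independent molecules. That interval excluded 1 for 61.7% of the 10365 genes whose mean reached 1 RPM (the floor), so it is far narrower than the spread of genes between these libraries. Each member was therefore also set beside its like-level range, which spans the central 95% of log2 ratios among the 500 genes closest in mean level.

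Markers of the labelled cell type were partly absent. Of 10 cardiomyocyte markers 9 were measured and 6 lay above the floor, with a summed level of 241 and 278 RPM. Myh6, Ryr2 and Tnni3 had 0 reads in the control and 23, 20 and 5 with the anti-miR, while Myl2 had 30 and 5. The most abundant were Tnnt2, with 147 and 161 RPM, and Actc1, with 77.0 and 88.8. Myh7 had 6.18 and 11.5 RPM, Nppa 5.68 and 9.38, and Actn2 3.12 and 3.78. All 8 fibroblast markers lay above the floor, with sums of 101970 and 103388 RPM, and the 7 measured macrophage markers summed to 5881 and 6696. Endothelial markers summed to 12.8 and 11.7 RPM over 5 genes, and smooth muscle markers to 967 and 975 over 3 genes. Among the endothelial genes Emcn was at 0 in both libraries, Pecam1 had 0 and 50 reads, Cdh5 0 and 1, and Vwf 47 and 3. Tie1 had the most reads of these genes in both libraries, 158 and 120. The synthetase levels below are those of this mixture, in which fewer cells of a type and less RNA per cell cannot be told apart, and the part of cell composition in any difference was not tested.

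Cytosolic synthetase transcripts were far more abundant than mitochondrial ones. The median level of the 21 cytosolic genes was 50.1 RPKM in the control against 48.7 with the anti-miR, against 4.86 and 5.20 RPKM for the 15 mitochondrial genes, so that the cytosolic median was 10.3 and 9.37 times the mitochondrial one. Apart from Tarsl2, a second threonine enzyme of the cytosol with 3.41 and 4.33 RPKM, the sets did not overlap in either library. The lowest other cytosolic level was that of Farsb, at 15.7 and 19.3 RPKM, and the highest mitochondrial level that of Tars2, the mitochondrial threonine enzyme, at 12.4 and 14.8 RPKM. Together the cytosolic genes took 0.316% and 0.319% of all reads on genes and the mitochondrial genes 0.0175% and 0.0197%.

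A group of 4 cytosolic genes stood above the others in length-corrected level. Sars, the serine enzyme, had 124.6 and 122.9 RPKM, and Aars, the alanine enzyme, 118.0 and 107.1. Nars, the asparagine enzyme, had 113.5 and 110.5 RPKM and the bifunctional Eprs 105.9 and 113.2. These 4 kept above 100 RPKM in both libraries, and the next gene in the control, Gars, had 66.3 and 68.4. In the anti-miR library the methionine enzyme gene Mars was next, at 69.0. Below them the cytosolic genes formed a continuous series down to Farsb, and their order at the low end is not separated by more than the differences between the libraries: Vars, the valine enzyme, had 24.9 and 27.0 RPKM and Qars, the glutamine enzyme, 22.2 and 27.1. Farsa and Farsb encode the alpha and beta subunits of the phenylalanine enzyme, which join in equal numbers, and Farsa had 1.78 times the RPKM of Farsb in the control against 1.36 times with the anti-miR.

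**Figure D1:**
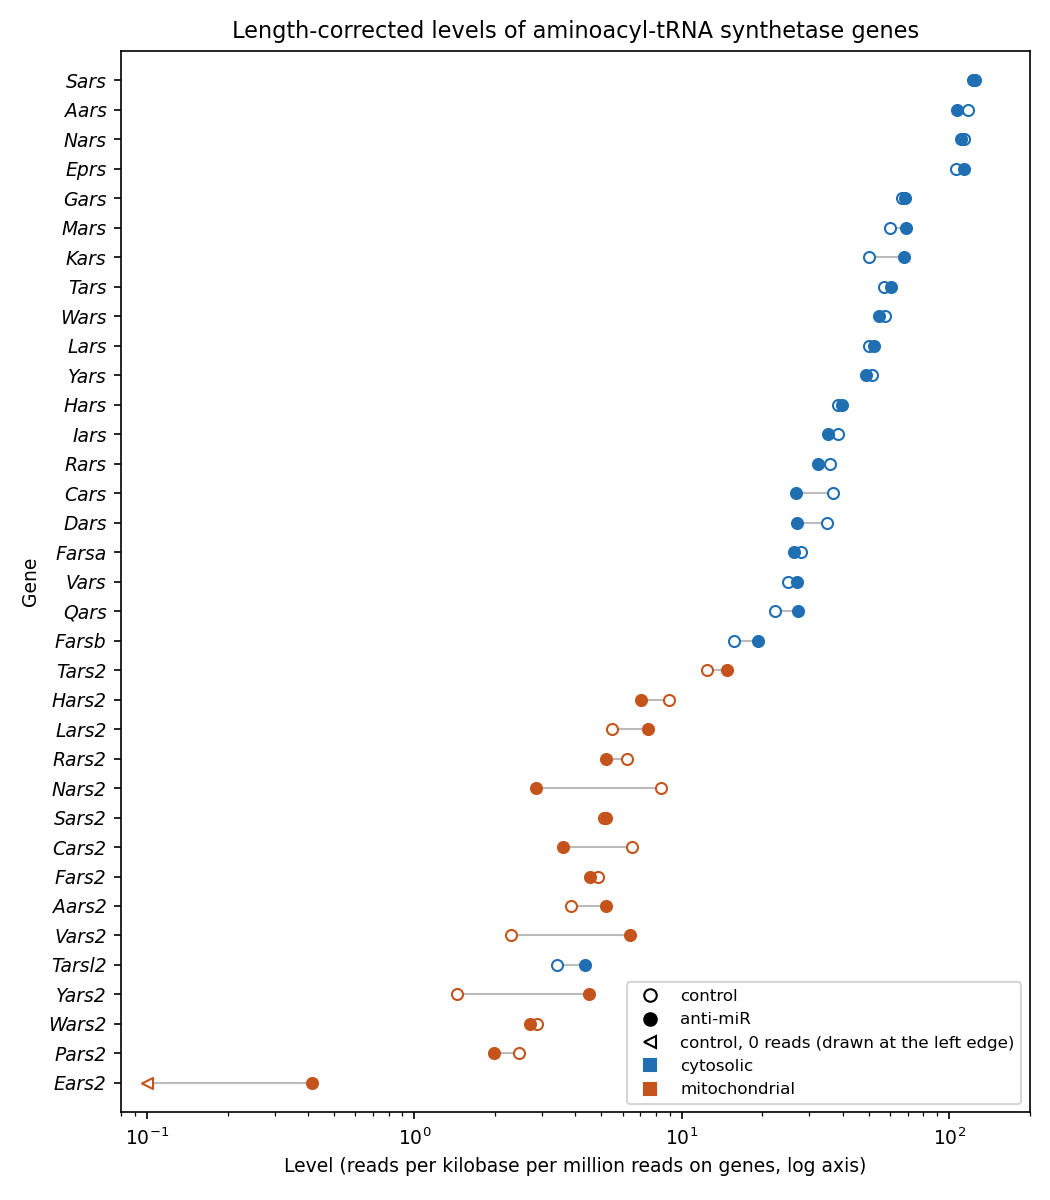
Length-corrected level of the synthetase genes reported by name, in the control (open symbols) and anti-miR library (filled symbols), on a log axis of RPKM. Cytosolic genes (blue) other than Tarsl2 all lie above the mitochondrial genes (orange), and Ears2, with 0 control reads, is drawn at the left edge.

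The cytosolic enzymes as a set differed little between the libraries. None of the 21 was 1.5-fold higher or lower. Of all genes above the floor 19.4% were (10.8% higher and 8.56% lower). Of the 8207 genes within the level span of the cytosolic set 11.1% were. Among the genes closest in mean level to each member, however, the share 1.5-fold apart averaged only 3.44%. Over 21 genes that comes to 0.722, so finding none was ordinary at these levels. The median log2 ratio was 0.04, beside 0.03 over all genes above the floor, with 11 members above 0 and 10 below. Summed over the set, 50738 reads in the control against 47197 with the anti-miR gave a ratio of 1.01 (0.994 to 1.02). With TMM scaling the ratio of sums was 0.989, on the other side of 1, while the median stayed above 0, at 0.02. Without Gars and Kars the median was −0.02 and the ratio of sums 0.992, and without Hars and Qars the median was again −0.02. The median size of the log2 ratio, whatever its sign, was 0.12 among the members and 0.21 among genes in their level span. That span, also used for the 11.1%, reaches down to 7.36 RPM through Tarsl2 alone. The next lowest member, Farsb, had 33.6 and 41.2 RPM, so neither comparison that uses the span is matched in level. An exact binomial test on the reads, adjusted over all genes by Benjamini-Hochberg, compares these libraries and not the conditions, and it called 20 of the 35 members above the floor beside 57.6% of all such genes. The counting interval excluded 1 for 11 of the 21, 6 above and 5 below, beside 62.1% of the genes in the same span.

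Kars and Cars marked the ends of the cytosolic set and were the only cytosolic members outside their like-level ranges. Kars (chromosome 19, 41927508 to 41946461 on build rn4), the lysine enzyme of both compartments and part of the multi-synthetase complex, stood at 106.5 RPM in the control against 144.6 in the anti-miR library. Its ratio was 1.36 (1.27 to 1.45) and its log2 ratio of 0.44 lay above the like-level range of −0.45 to 0.38. Cars (chromosome 1, 203934812 to 203977042), the cysteine enzyme, had 108.0 and 79.0 RPM, a ratio of 0.732 (0.679 to 0.789). Its log2 ratio of −0.45 lay just below the range of −0.42 to 0.45. Over all genes above the floor, 5.32% lay outside their like-level ranges, and of the 35 synthetases above the floor 4 did, Nars2 and Vars2 among the mitochondrial genes being the other two.

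Smaller differences in the cytosolic set went in both directions. Dars, the aspartate enzyme, had 52.0 and 40.2 RPM (log2 ratio −0.37), and Rars, the arginine enzyme, 74.7 and 67.2 (−0.15). Aars had 394 and 358 RPM (−0.14) and Iars, the isoleucine enzyme, 171 and 156 (−0.13). For these 4 the counting interval lay below 1, while every value stayed inside the like-level range. On the other side, Farsb had 33.6 and 41.2 RPM (0.29) and Qars 61.0 and 74.4 (0.29). The row of Qars lies on a piece of rn4 not placed within chromosome 16. Mars, the methionine enzyme, had 166 and 190 RPM (0.20), Vars 98.4 and 106.6 (0.12) and Eprs 469 and 501 (0.10). These 5 had counting intervals above 1 and also stayed inside their like-level ranges. The Mars row overlaps the oppositely oriented Ddit3, a gene of the amino acid response, by 62 bases, and counting was by strand per the file headers.

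The other 9 cytosolic enzymes could not be told from a ratio of 1 by counting error, besides Tarsl2 at the low end of the level range. Sars had 230 and 227 RPM, Nars 295 and 287, Gars 161 and 167, and Lars, the leucine enzyme, 189 and 198. Tars, the main cytosolic threonine enzyme, had 138 and 146 RPM and Yars, the tyrosine enzyme, 125 and 118. Wars, the tryptophan enzyme, known to be induced by interferon gamma, had 165 and 157 RPM, while Farsa had 49.7 and 46.6. Hars, the histidine enzyme, had 70.3 and 73.1 RPM, from a row that merges 2 placements on rn4. All 9 log2 ratios lay between −0.09, for Farsa, and 0.08, for Tars. Tarsl2 had only 104 and 122 reads and a ratio of 1.27 (0.969 to 1.67).

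**Figure D2:**
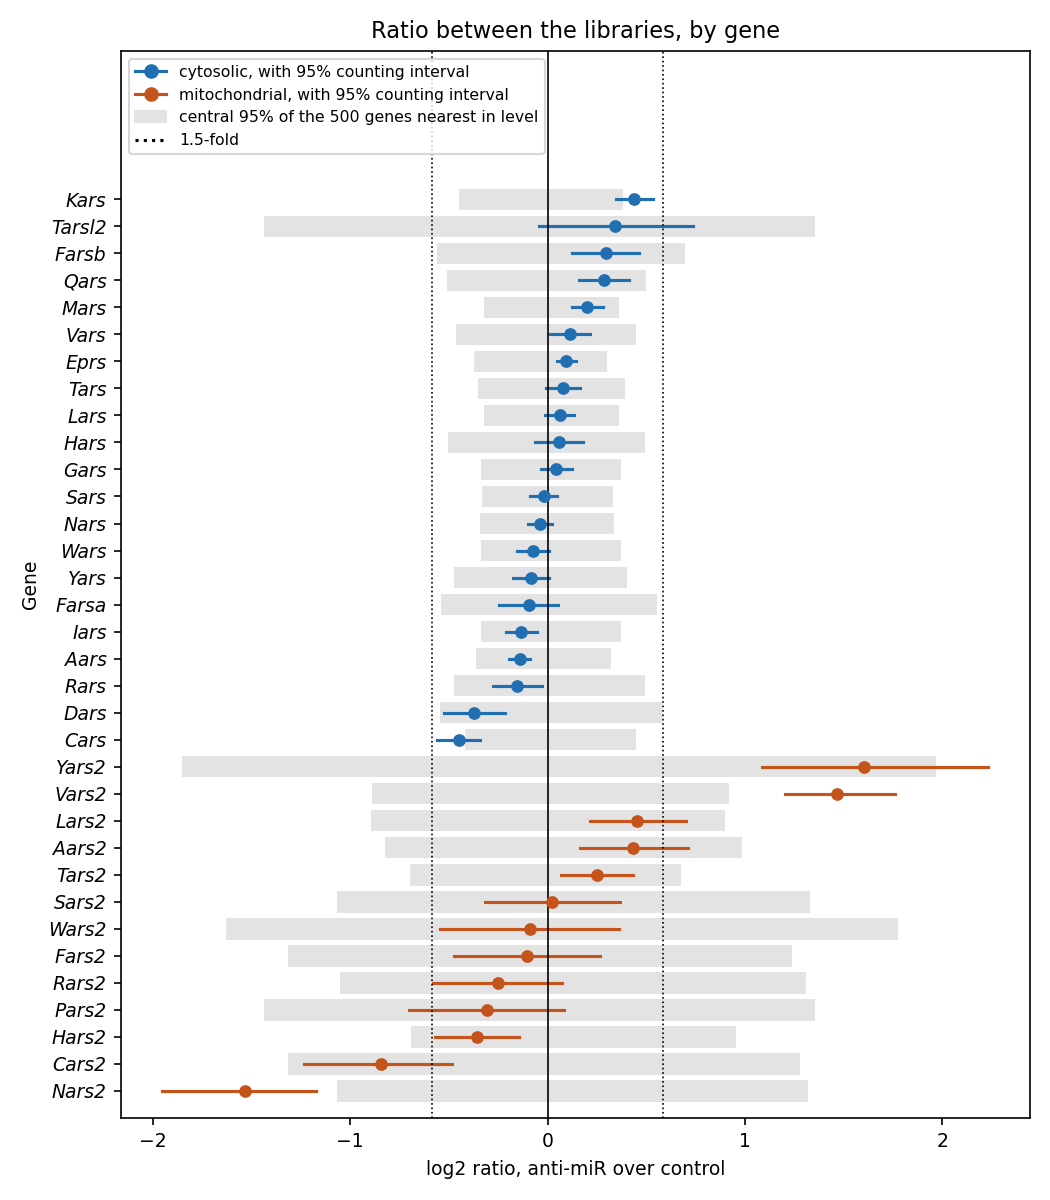
log2 ratio of the anti-miR over the control level for the synthetase genes above the floor that are reported by name, with 95% counting intervals (coloured lines) and the central 95% of the 500 genes nearest in level (grey bars). All 21 cytosolic genes lie within the dotted 1.5-fold lines, Yars2, Vars2, Cars2 and Nars2 lie outside them, and only Kars, Cars, Nars2 and Vars2 leave the grey bars.

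Members of the multi-synthetase complex and the free cytosolic enzymes differed slightly in their sums. The 8 members of the complex (Eprs, Iars, Lars, Mars, Qars, Rars, Kars and Dars) had summed levels of 1290 and 1372 RPM, a ratio of 1.06 (1.04 to 1.08), with a median log2 ratio of 0.08. The other 13 cytosolic genes had 1875 and 1813 RPM, a ratio of 0.967 (0.951 to 0.983), with a median of −0.02. Both sets held members on each side of 0, with 5 of 8 and 6 of 13 above it, beside 53.3% of all genes above the floor, and 0 members of either were 1.5-fold apart. By catalytic class, the 10 cytosolic genes of class I had a median of −0.01 and the 11 of class II 0.04. These sums are set mostly by the abundant members, and the intervals cover counting error only. Single genes also weigh on the difference between the sums. Kars, in the complex, had 106.5 and 144.6 RPM, and outside it Aars had 394 and 358 and Cars 108.0 and 79.0. The sums without these genes were not computed, so a difference shared by the whole complex is not shown.

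Of the scaffold genes of the complex, Aimp1 alone differed by 1.5-fold. Its 302 and 452 reads, or 18.8 and 30.5 RPM, gave a ratio of 1.62 (1.40 to 1.88). The log2 value of 0.69 fell between the like-level limits of −0.69 and 0.96. Aimp2 had 23.5 and 23.7 RPM and Eef1e1 18.2 and 18.2. The 3 scaffold transcripts reached at most 21.4 RPKM in the control, below the 8 enzymes they hold, which had 22.2 RPKM or more. In the anti-miR library Aimp1, at 29.2 RPKM, was above Dars and Qars, at 27.0 and 27.1.

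Promoters of the cytosolic genes often carried the letters of the amino acid response element. RefSeq promoter sequences of build GRCr8 were matched to 18 of the 21 cytosolic and 14 of the 15 mitochondrial genes, and the 250 bases before each start were searched on both strands for TGATGNAAN. A match was found in 5 of the 18 cytosolic promoters (27.8%) and 0 of the 14 mitochondrial ones, against 3.25% of all 27457 promoters and 1.76% of the 8489 promoters of genes above the floor. In all 5 the match held the letters TGATGCAA, which 0.507% of promoters of genes above the floor hold. On the list of amino acid response genes 7 of 28 promoters had a match to TGATGNAAN. Of the 5 sites, those of Iars, Mars, Nars and Tars are printed with up to 15 bases on each side, 5′ to 3′ on the strand of the gene, with the match in capitals. The Nars match reads along the gene's strand and the other 3 printed are its reverse complement.
Iars (GRCr8 chr17:15193654-15193692, − strand): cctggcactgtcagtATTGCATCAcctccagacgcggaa
Mars (GRCr8 chr7:65023754-65023786, − strand): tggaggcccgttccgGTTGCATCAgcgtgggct
Nars (GRCr8 chr18:60275783-60275811, − strand): ctgccctaggtgatcTGATGCAACgcttc
Tars (GRCr8 chr2:62114807-62114845, − strand): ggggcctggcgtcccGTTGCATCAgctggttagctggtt

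The 4 genes shown had log2 ratios from −0.13, for Iars, to 0.20, for Mars, within the span of the other cytosolic members. A match describes the letters only and does not show binding. The ETS core CCGGAAG, searched in the same windows on both strands, was found in 9 of 18 cytosolic and 5 of 14 mitochondrial promoters (50% and 35.7%), against 16.2% of promoters of genes above the floor. Hars is among the 9 and Hars2 among the 5, and 1 site between these neighbouring genes lies in both windows, so the 2 counts are not fully separate. The core site of NRF-1, a factor of many mitochondrial genes, was found in 1 mitochondrial promoter, that of Wars2, and in 0 cytosolic ones, against 1.79%. No match to TGATGNAAN overlapped an ETS core in the members' promoters, with 0 such overlaps.

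Mitochondrial synthetases covered a wider range of ratios than the cytosolic ones, at levels where all genes did so. Among the 14 above the floor, 3 reached 1.5-fold upward, Yars2 and Vars2 among them, and 2 downward, Nars2 and Cars2. Of the 4128 genes in the level span of the mitochondrial set, 24.6% were 1.5-fold apart, 14.4% upward and 10.2% downward. The corresponding shares in the cytosolic span were 6.56% and 4.56%. A 2-fold difference was reached by Yars2 and Vars2 upward and Nars2 downward, beside 8.41% of all genes above the floor (4.85% upward and 3.56% downward). These 2-fold shares are not matched in level, as none was computed for the level span of the mitochondrial set. Counting intervals excluded 1 for 9 of the 14, beside 59.3% in the same span. Averaged over the 14 members, 30.2% of the genes in each one's like-level set were 1.5-fold apart, which over 14 genes comes to 4.23, beside the 5 counted. The median log2 ratio was −0.03, with 7 members above 0 and 7 below, and the mean was 0.12, opposite in sign. Summed over all 15 genes, 2802 and 2920 reads gave a ratio of 1.13 (1.07 to 1.19). In RPM the sums were 175 and 197, of which Vars2 alone made up 9.36 and 26.1 and, in the opposite direction, Nars2 14.7 and 4.99. The ratio of sums without Vars2 was not computed.

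Vars2 and Nars2 lay outside their like-level ranges, on opposite sides. Vars2 (chromosome 20, 3228063 to 3238909 on rn4), the mitochondrial valine enzyme, had 150 and 386 reads, or 9.36 and 26.1 RPM. Its ratio was 2.78 (2.30 to 3.39) and its log2 ratio of 1.47 lay above the range of −0.89 to 0.92. Nars2 (chromosome 1, 154216134 to 154299695), the mitochondrial asparagine enzyme, had 235 and 74 reads, or 14.7 and 4.99 RPM. Its ratio of 0.341 (0.259 to 0.444) and log2 ratio of −1.53 lay below the range of −1.07 to 1.32. Nars2 was thus the third most abundant mitochondrial synthetase per length in the control, at 8.39 RPKM, and among the lowest in the anti-miR library, at 2.86.

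Yars2 and Cars2 differed by 1.5-fold or more but stayed inside their like-level ranges. Yars2 (chromosome 11, 86609037 to 86614799), the mitochondrial tyrosine enzyme, had the highest ratio above the floor, with 36 and 104 reads, or 2.25 and 7.02 RPM, a ratio of 3.13 (2.12 to 4.70). Its log2 ratio of 1.60 lay within −1.85 to 1.97, a wide range at this depth. Cars2, the mitochondrial cysteine enzyme, had 180 and 92 reads, or 11.2 and 6.21 RPM, with a ratio of 0.553 (0.425 to 0.715), and −0.84 on the log2 scale was within −1.32 to 1.28. Cars2 and its cytosolic counterpart Cars were both lower in the anti-miR library.

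The remaining mitochondrial enzymes lay within 1.5-fold. Lars2, for leucine, had 15.5 and 21.3 RPM (log2 ratio 0.46), Aars2, for alanine, 12.7 and 17.1 (0.43), and Tars2 29.3 and 34.8 (0.25), all with counting intervals above 1. Hars2, for histidine, had 27.6 and 21.5 RPM (−0.36), with an interval below 1. The other 5 had intervals that include 1, so that at this depth no difference was detectable: Pars2, for proline, with 8.11 and 6.55 RPM, Rars2, for arginine, with 11.4 and 9.58, Fars2, for phenylalanine, with 8.48 and 7.90, Wars2, for tryptophan, with 5.68 and 5.33, and Sars2, for serine, with 9.42 and 9.58. Ears2, for glutamate, was below the floor, with 0 reads in the control against 12 with the anti-miR. Against the limit that a count of 0 allows, 3 reads or 0.187 RPM, the anti-miR level of Ears2 was at least 4.33-fold higher. That bound takes the 12 reads as they stand, and with their own counting error the exact 95% interval of the ratio begins at 3.01.

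**Figure D3:**
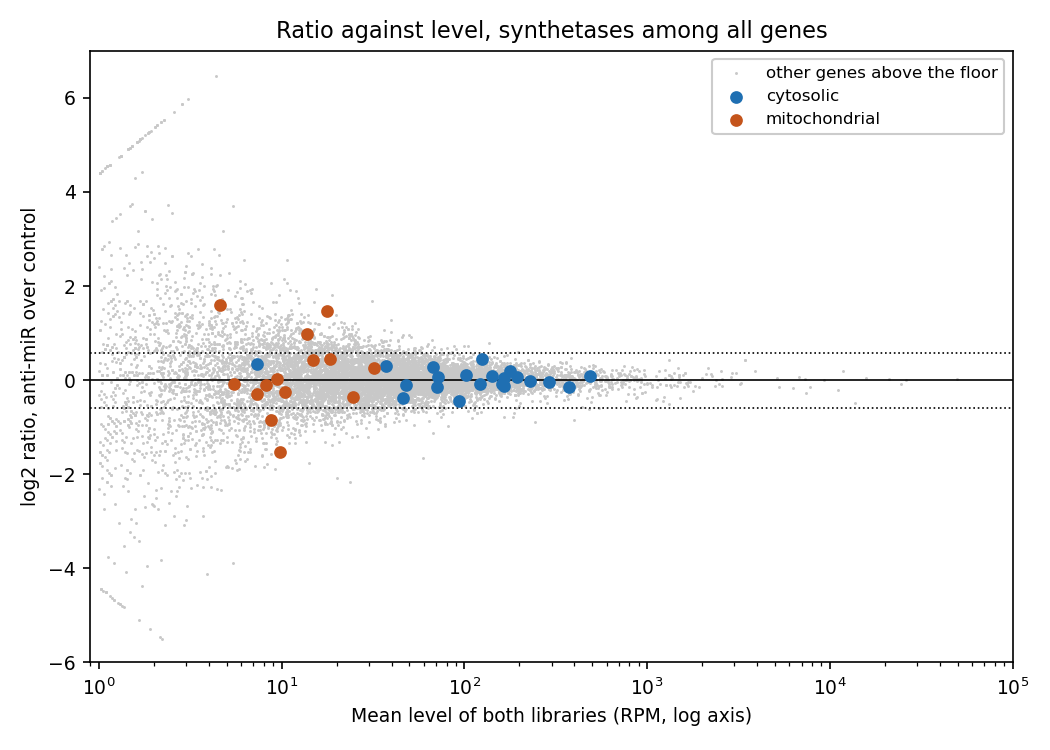
log2 ratio of the anti-miR over the control level against the mean level of both libraries (log axis) for 10365 genes above the floor (grey), with cytosolic (blue) and mitochondrial (orange) synthetases; dotted lines mark 1.5-fold. The mitochondrial genes sit at 4.63 to 32.0 RPM, where grey points spread widely, and the cytosolic genes at 7.36 to 485 RPM, where most of the spread is narrower.

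Cytosolic and mitochondrial enzymes of the same amino acid differed between the libraries in the same direction about as often as not. For 11 amino acids the table holds a cytosolic gene and a mitochondrial gene above the floor, not counting threonine, phenylalanine and the 2 activities of Eprs, where the relation is not 1 to 1. The log2 ratios of cytosolic and mitochondrial gene lay on the same side of 0 in 6 of these 11 pairs. However, the counting interval included 1 for Hars, Lars, Nars, Sars, Wars and Yars, and for Rars2, Sars2 and Wars2. In the pairs with these genes the side of at least 1 gene is not determined, so the count of 6 shows little about shared direction. The cytosolic level per length was 4.26 to 35.8 times the mitochondrial one in the control, around a median of 10.8, and up to 38.7 times in the other library, around a median of 7.46. Every pair kept the cytosolic gene higher in both libraries.

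Among the pairs reported by name, the balance differed widely for tyrosine, asparagine and valine. The tyrosine pair rests on only 36 and 104 reads of Yars2, whose log2 ratio stayed inside its like-level range. Yars had 35.8 times the RPKM of Yars2 in the control against 10.8 times with the anti-miR, and Vars had 10.8 times that of Vars2 and then 4.22 times. In the opposite direction, Nars had 13.5 times the RPKM of Nars2 in the control against 38.7 times with the anti-miR. By contrast, serine, tryptophan and arginine kept nearly the same balance, at 24.4 and 23.6, 20.0 and 20.2, and 5.76 and 6.17 times. Threonine has 2 cytosolic genes, and Tars had 16.8 and 13.9 times the RPKM of Tarsl2, which was itself at 0.275 and 0.293 of the level of Tars2.

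**Figure D4:**
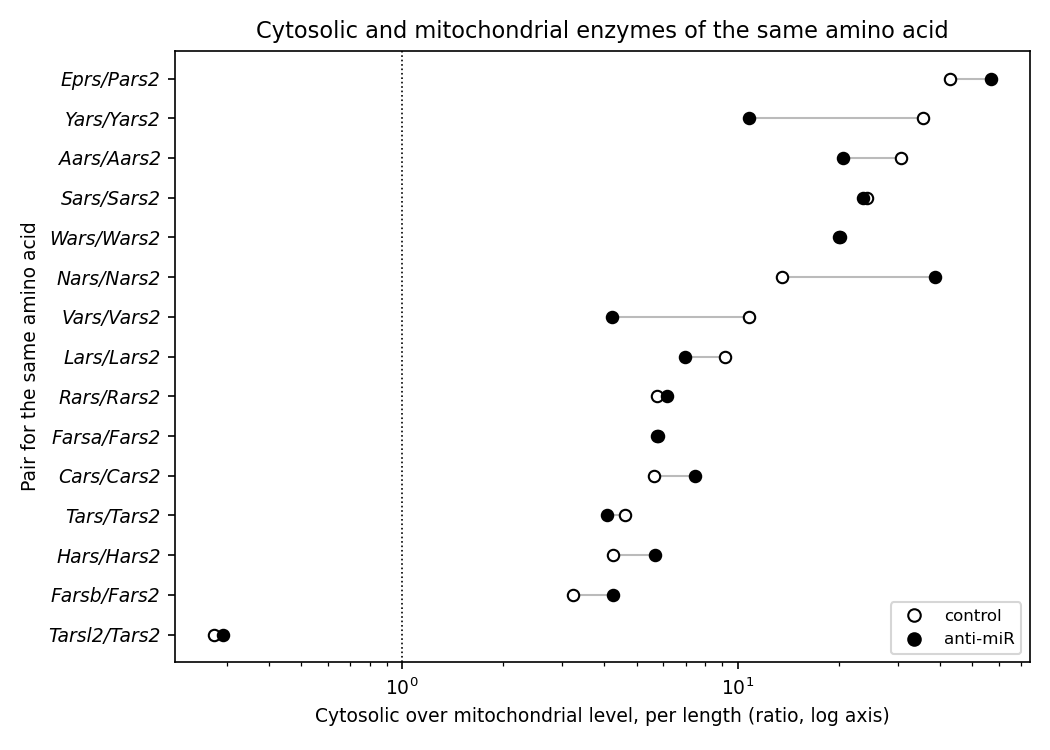
Cytosolic over mitochondrial level per length (log axis) for the pairs of genes of the same amino acid that are reported by name, in the control (open) and anti-miR library (filled). Only Tarsl2 lies below its mitochondrial counterpart, and the tyrosine, valine and asparagine pairs differ most between the libraries.

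Hars and Hars2 are neighbours, with 143 bases between their rows on rn4 (chromosome 18, 29467648 to 29483037 and 29483181 to 29491738). RefSeq places them head to head on build GRCr8, on opposite strands, while the deposited row of Hars gives the + strand and merges 2 placements, so its counts by strand are uncertain. The 97 bases between the genes on GRCr8 are shown because both start at its edges. They are printed on the + strand (GRCr8 chr18:28672713-28672809), running from the Hars start towards Hars2, with the 1 ETS core, here as its reverse complement, in capitals.
Hars-Hars2: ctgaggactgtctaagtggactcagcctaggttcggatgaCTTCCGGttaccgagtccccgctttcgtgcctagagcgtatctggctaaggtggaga
Across this shared stretch the 2 genes had different levels. Hars had 38.2 and 39.8 RPKM and Hars2 8.97 and 7.00, with log2 ratios of 0.06 and −0.36, both inside their like-level ranges. The counting interval of Hars, 0.956 to 1.13, included 1, so the direction of its difference is not determined.

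The cytosolic and mitochondrial sets had similar medians and unequal spreads. The mitochondrial minus the cytosolic median log2 ratio was −0.08. The log2 ratios ran from −0.45 to 0.44 in the cytosolic set and from −1.53 to 1.60 in the mitochondrial set. The median size of the log2 ratio was 0.39 among mitochondrial members and 0.34 among the genes in their level span, and 0.12 and 0.21 for the cytosolic set. The cytosolic span is not matched in level to its members, as Tarsl2 alone sets its low end. With a floor of 10 RPM in place of 1, the mitochondrial median was 0.43 and the difference of medians 0.42, the opposite sign. By class, the 6 mitochondrial genes of class I above the floor had a median of 0.18 and the 8 of class II −0.04.

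Genes of the amino acid response, the program that ATF4 drives, had a median close to that of the cytosolic synthetases. Of 31 listed genes 29 lay above the floor, with a median log2 ratio of 0.02, with Cth and Stc2 past 1.5-fold upward (2 genes) and Pycr1 downward (1 gene), beside 10.8% of all genes above the floor upward and 8.56% downward. Atf4 itself had 547 and 583 RPM and Vldlr, a lipoprotein receptor and the most abundant of the list, 648 and 659. Stc2, a secreted stress glycoprotein, was highest with 33 and 80 reads, and Pycr1, an enzyme of proline synthesis, lowest at 21.9 and 12.6 RPM. Asns, the asparagine synthetase gene that ATF4 is best known to induce, had 134.0 and 136.1 RPM. It and Ddit3 (49.7 and 35.0 RPM) were chosen after their values were seen. The sum of the list was 3738 and 3718 RPM, a ratio of 0.995 (0.983 to 1.01).

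Other genes of mitochondrial translation differed in both directions. The list of mitochondrial tRNA processing and modification had 14 genes above the floor, with a median of −0.02, and 1 gene past 1.5-fold each way, beside the 10.8% and 8.56% of all genes. Qrsl1, a subunit of the amidotransferase that makes mitochondrial glutaminyl-tRNA from the product of Ears2, was highest with 5.30 and 8.44 RPM, and Pus1, a pseudouridine synthase, lowest with 33.1 and 20.6. Hsd17b10, a subunit of mitochondrial RNase P, and Elac2, which trims the other end of the tRNA, were the most abundant, with 48.7 and 36.7 and with 34.6 and 41.6 RPM. Mitochondrial translation factors had a median of 0.16 over 8 genes, and again 1 gene past 1.5-fold each way, beside the same shares of all genes. The highest and lowest were Guf1, an elongation factor, with 13.1 and 19.7 RPM, and Mtrf1l, a release factor, with 10.5 and 6.82. Lrpprc, which stabilises mitochondrial mRNAs, had 70.7 and 85.7 RPM and the elongation factor Tufm 46.8 and 61.2.

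Genes that proofread or handle tRNA, and the interferon genes that accompany Wars, were mixed. Of 11 trans-editing, selenocysteine and related genes Eefsec, Dtd2 and Trmt11 passed 1.5-fold upward (3 genes) and 0 passed it downward, around a median of 0.14. Over all genes above the floor these shares were 10.8% and 8.56%. Trmt11, a tRNA methyltransferase, was highest with 27 and 127 reads, Dtd1, which removes D-amino acids from tRNA, lowest with 15.3 and 11.3 RPM, and the tRNA exporter Xpot and the methyltransferase Trmt1 most abundant with 129 and 124 and with 76.2 and 70.0. The interferon gamma list had a median of 0.06 over 10 of 14 genes above the floor, with 1 past 1.5-fold upward and 2 downward, again beside 10.8% and 8.56%. Ifit3, an antiviral gene, was lowest with 57 and 14 reads, and the proteasome subunit gene Psmb9 highest with 6.74 and 11.4 RPM. Irf8, a transcription factor of macrophages and among the most abundant of the list, had 39.1 and 34.4 RPM.

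**Figure D5:**
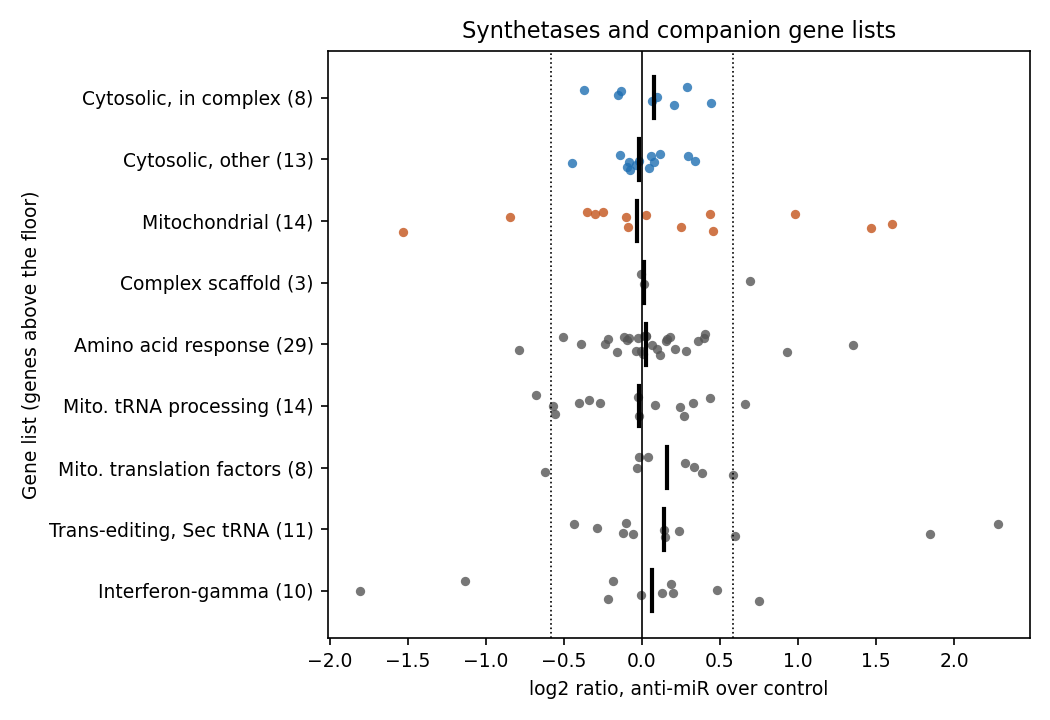
log2 ratio of the anti-miR over the control level for synthetases and companion lists, 1 point per gene above the floor, with black bars at the medians and dotted lines at 1.5-fold. Medians lie between −0.03 and 0.16 in all 9 sets, and both sets of cytosolic synthetases have 0 genes outside the dotted lines.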

How the data were processed

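The file headers record a HOMER (analyzeRepeats) run on rn4: exon reads were counted strand-specifically and 1 transcript was kept for each gene. The submitters' processing notes name STAR 2.2.0c and CASAVA 1.8.2 and give no role. Values as deposited are a read signal that the authors scaled to equal column totals (15423813), the mean of both read totals. Whole reads were recovered by dividing by the value of 1 read (0.962 and 1.04). Of values up to 400 reads, 100% were whole within 0.005 deposited units. RPM, RPKM (with the deposited length), ratios and intervals were computed from these reads with scipy 1.17.1 and checked on simulated data. TMM factors came from edgeR 4.0.16 and median-of-ratios factors from DESeq2 1.42.0. The gene floor was a mean of 1 RPM and the fold 1.5. Members are given one by one, and in companion lists the highest, the lowest and the 2 most abundant genes are named, except for a few items that are not reported here. Members and lists were chosen with earlier results of these data known. Of 12 mitochondrial translation factors 8, of 19 mitochondrial tRNA genes 14 and of 13 trans-editing genes 11 were measured.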

Additional observations from a re-analysis of the deposited data

How the results depend on the processing

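Of 44 recomputed values, 36 stayed within the tolerance set for them. With a floor of 10 RPM, which leaves fewer mitochondrial genes, their median log2 ratio was 0.43, the difference of medians 0.42 and 2 were 1.5-fold apart. With a fold of 2, 3 mitochondrial genes passed. The ratio of summed cytosolic reads was 0.989 with TMM scaling, 0.990 with median-of-ratios scaling and 0.992 without Gars and Kars. Adding the scaffold genes gave 1 cytosolic member 1.5-fold apart, Aimp1. Both scalings lowered all log2 ratios by about 0.02. Leaving out Hars and Qars was chosen after seeing the data and moved no value past its tolerance. No paired analysis was possible because each group has 1 library. Depth limits the mitochondrial genes most: their counting intervals had a median half-width of 0.33 on the log2 scale, against 0.09 for cytosolic genes.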

Other observations

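Of the 36 synthetases, 11 had another listed gene within 500 bases, a distance chosen after the data were seen. Vars2 lies 145 bases beyond Gtf2h4 (chromosome 20, 3222265 to 3227917), a transcription factor subunit gene on the same strand, whose 73 and 165 reads gave a ratio of 2.45 (1.85 to 3.27). On the log2 scale this was 1.27, beside 1.47 for Vars2. Whether reads of the 2 rows come from a shared transcript was not tested. Kars, the highest cytosolic member at 0.44, lies 159 bases from the oppositely oriented Terf2ip, which had 40.4 and 40.3 RPM. Sars2, at 0.02, lies 193 bases from the oppositely oriented Mrps12, a mitochondrial ribosomal protein gene, which had 16.3 and 23.9 RPM and a log2 ratio of 0.55. Rars2, at −0.25, lies 78 bases from Orc3, which had 21.1 and 21.9 RPM. Ears2 lies 359 bases from Ubfd1, which had 25.4 and 28.1 RPM.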
